A study of Mus musculus with 2 samples.

Results

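The genes described here are 8 Toll-like receptor genes of the mouse, Tlr1, Tlr2, Tlr3, Tlr4, Tlr6, Tlr7, Tlr9 and Tlr13, with Unc93b1 and Myd88, which encode a trafficking partner and the shared signalling adaptor. They were taken by symbol, and all 10 were found among the 34745 gene models of each library. RNA-seq had been done on C57BL/6 marrow progenitors from mice given 5-fluorouracil, which had been transduced with lentivirus encoding PML/RARa, the fusion oncoprotein of acute promyelocytic leukaemia, and sorted for transduction. One group carried the wild-type fusion (WT) and the other the form labelled 2KR, in which the series title places the change at 2 lysines. Both were grown in a myeloid medium with SCF (50 ng/ml), IL-3 and IL-6 (10 ng/ml each), hydrocortisone and 20% serum. For both, the protocol states 6 ug/ml polybrene, a spin at 1800 rpm for 40 min and a culture time of 24 h. There was 1 library per form, so no difference has a replicate check and no p-value was computed. The sources used here do not give the number of mice, their age or any pooling, and the empty vector (pMSCV) arm was not analysed here.

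Toll-like receptors recognise microbial molecules through a leucine-rich ectodomain and signal through a cytoplasmic TIR domain. TLR1, TLR2, TLR4 and TLR6 act at the cell surface, TLR1 and TLR6 as partners of TLR2 for bacterial lipoproteins and TLR4 for lipopolysaccharide. TLR3, TLR7, TLR9 and TLR13 sense nucleic acids in endosomes and depend on UNC93B1 to leave the endoplasmic reticulum, while MyD88 carries the signal of every member receptor except TLR3. Progenitor cells of the marrow are known to carry some of these receptors, and their stimulation favours myeloid differentiation.

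Total counts were 17606168 for WT and 20462011 for 2KR. Levels are given as CPM, read counts scaled to library size. The order of levels among genes was read as FPKM, which also divides by gene length. Sums over genes, highest means in a list and genes nearest in level use CPM and do not allow for length. Intervals are exact 95% intervals and cover counting error only, as do the limits for genes at 0, set at 3 counts. All 8 progenitor markers averaged at least 1 CPM, among them Kit, the SCF receptor, at 1359 CPM in WT and 1158 in 2KR. The mast cell protease Cpa3 was abundant too, at 5468 and 2525 CPM.

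Sequence bears on how the reads of a pair of members could be assigned, so the longest shared stretch is shown. The coding sequences of Tlr1 and Tlr6 hold an identical run of 229 bases, the longest between any pair of these genes, and 15.3% of the 50-base words of the Tlr1 transcript also occur in Tlr6. These 454 shared words are more than a run of 229 bases can hold, so Tlr1 and Tlr6 also match outside it. Each gene was represented by its protein-coding transcript with the longest coding sequence, and other transcripts were not compared. No other pair, with Tlr5, Tlr8, Tlr11 and Tlr12 included, shared a 50-base word on these transcripts. The longest run in any other pair was 18 bases. The run was read from the GENCODE M21 transcripts on GRCm38, in sense orientation.
Tlr1 and Tlr6 shared run: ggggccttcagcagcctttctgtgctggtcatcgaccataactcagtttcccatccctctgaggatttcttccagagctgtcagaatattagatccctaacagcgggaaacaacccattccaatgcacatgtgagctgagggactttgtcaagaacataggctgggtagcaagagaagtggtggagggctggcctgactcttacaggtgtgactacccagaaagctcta
Reads from this run or the other shared stretches fit both genes equally, so low counts of Tlr1 or Tlr6 could be shifted or lost there. How the authors assigned such reads is unknown here.

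Promoters, 250 bases before to 50 after a start site, were matched by symbol to RefSeq (GRCm38.p6) for 7 of the 10 genes: Tlr1, Tlr2, Tlr3, Tlr6, Tlr9, Tlr13 and Myd88. Tlr4, Tlr7 and Unc93b1 had no entry. The promoters of Tlr13, the only endosomal receptor gene of the 10 besides Tlr7 with over 5 counts in a library, and of Myd88, the most abundant member, are shown, with capitals for the PU.1 core GAGGAA in the first and, in the second, the interferon-stimulated response element, searched as GAAA repeated after any 2 bases.
Tlr13 (chrX:106143025-106143324, plus strand): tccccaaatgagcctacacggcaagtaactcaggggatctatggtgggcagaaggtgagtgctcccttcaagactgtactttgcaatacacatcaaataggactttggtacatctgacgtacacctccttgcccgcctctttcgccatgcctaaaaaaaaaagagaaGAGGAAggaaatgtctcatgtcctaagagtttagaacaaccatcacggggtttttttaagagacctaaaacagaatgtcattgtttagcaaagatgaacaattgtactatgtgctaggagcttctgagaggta
Myd88 (chr9:119339969-119340268, minus strand): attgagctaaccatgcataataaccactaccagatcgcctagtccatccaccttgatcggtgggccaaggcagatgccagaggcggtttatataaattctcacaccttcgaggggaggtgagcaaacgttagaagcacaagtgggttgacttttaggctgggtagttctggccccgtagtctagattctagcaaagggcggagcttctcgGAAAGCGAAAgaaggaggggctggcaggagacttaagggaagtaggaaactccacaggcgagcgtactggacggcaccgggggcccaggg
GAGGAA, searched on both strands, was in 3 of the 9 promoters of these 7 genes (Tlr1, Tlr9 and Tlr13) and in 28.3% of 32851 RefSeq promoters. The interferon-stimulated element was in 2 of the 9 (Myd88 and Tlr6) and in 3.44% of all. The retinoic acid receptor element AGGTCA, 1 arm of its usual repeat, was in 2 of the 9 (Tlr2 and Tlr9) and in 16.3% of all. The AP-1 core TGANTCA was in 1 (Tlr9) and in 7.81% of all, and the GATA core AGATAA in 2 (Tlr3 and Tlr9) and in 11.2% of all. These matches describe letters only; none of the searched motifs overlapped another in the promoters shown.

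Tlr7 was the only one of the 10 genes that differed at least 2-fold by the size rule used here, and it was far lower in 2KR. Of the 10 genes, 5 averaged at least 1 CPM over the 2 libraries (Tlr2, Tlr6, Tlr7, Unc93b1 and Myd88). A gene was counted as different when the log2 ratio of CPM + 1 was at least 1 in size; among these 5, 1 was lower and 0 higher. Over all 12466 gene models that passed this filter, 4.56% were lower in 2KR and 2.66% higher by the same rule. A second rule, with the counting interval of the ratio wholly beyond 1.5-fold, again took Tlr7 alone of the 5. It was not stricter, since it took 11.4% of all models in either direction, more than the size rule. The median log2 ratio of the 5 was -0.03, beside 0.02 over all models, with Tlr6, Tlr7 and Myd88 below 0 and Tlr2 and Unc93b1 above. The other 5 genes (Tlr1, Tlr3, Tlr4, Tlr9 and Tlr13) fell under the filter on low values.

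**Figure D1:**
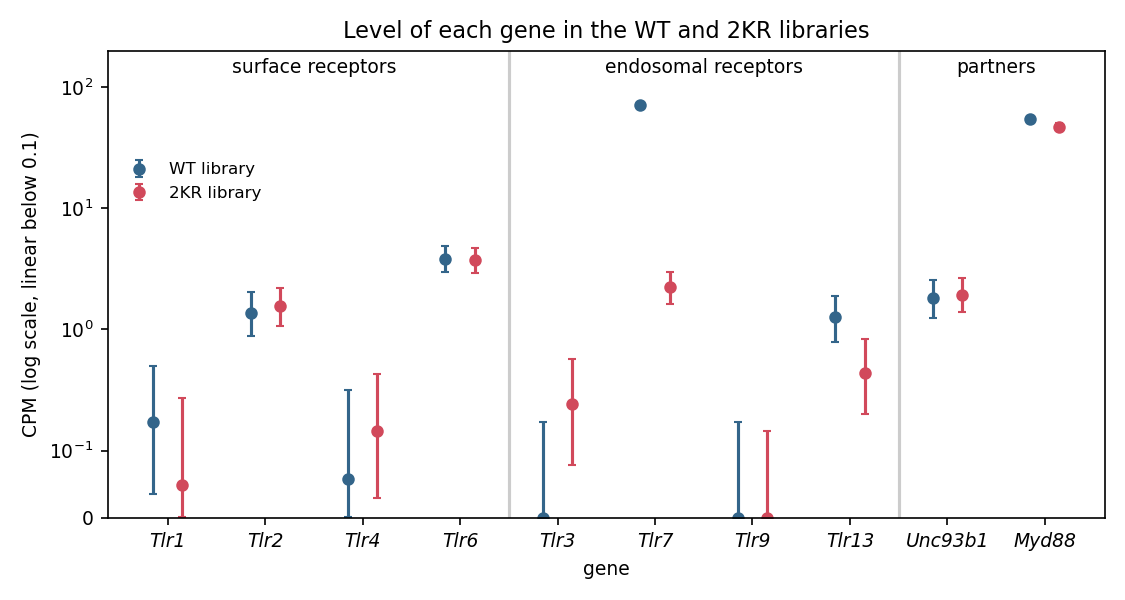
CPM of each gene in the WT library (blue) and the 2KR library (red), on an axis that is logarithmic above 0.1 and linear below; bars are exact 95% Poisson intervals, and for genes at 0 the limit of 3 counts. Tlr7 has 70.6 CPM in WT and 2.23 in 2KR, while Tlr2, Tlr6 and Unc93b1 have overlapping bars.

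Tlr7 (ENSMUSG00000044583, chromosome X, 167304929 to 167330558 in GRCm38, minus strand) encodes the endosomal receptor of single-stranded RNA. Reads numbered 1235 in WT against 46 in 2KR, which is 70.6 and 2.23 CPM. The WT library was the high one, and the counting intervals of 66.8 to 74.7 and 1.63 to 2.98 CPM lay far apart. The level was 31.6-fold lower in 2KR (23.6 to 43.4), a log2 ratio of -4.47. Only 4 of the 12466 models had a lower log2 ratio: Igf2bp3, Olfm3, Colgalt2 and Tgfb2. By distance over log2(CPM + 1) in the 2 libraries, the genes closest to Tlr7 were Pax6, Sgk1 and Gpnmb, at 0.12, 0.62 and 0.72 log2 units. With 2 libraries this likeness says only that CPM, which are not per length, were close in each.

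Genes beside Tlr7 on the X chromosome did not show such a decrease. Prps2, a nucleotide synthesis enzyme 15764 bases away, stood at 79.6 CPM in WT against 101.04 in 2KR. On the other side, Tmsb4x, encoding an actin-binding peptide, had 249 and 389 CPM. Tlr8, the neighbouring sensor gene of the same subfamily, had 0 counts in both libraries, which allows up to 0.172 CPM in WT and 0.146 in 2KR. Of 396 X-linked models that passed the filter, 27 (6.82%) were at least 2-fold lower in 2KR, beside 4.56% of all 12466 models.

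Tlr13 (ENSMUSG00000033777, chromosome X, 106143204 to 106160493, plus strand) encodes a receptor of bacterial ribosomal RNA. Its reads numbered 22 in WT against 9 in 2KR, which is 1.26 and 0.437 CPM. The WT library was again the higher, by a ratio of 2.88 with a wide interval of 1.27 to 7.11, and the 2 single-library intervals overlapped slightly. The mean was under 1 CPM, and with the added 1 CPM the log2 ratio was -0.65, short of the 2-fold rule. Its neighbours differed little: Atp7a, a copper transporter, had 81.7 and 80.95 CPM, and Pgk1, a glycolytic enzyme, 607 and 674.

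The remaining endosomal receptors were at or near 0. Tlr3 (ENSMUSG00000031639, chromosome 8, 45395665 to 45410608), the receptor of double-stranded RNA, had 0 counts in WT and 5 in 2KR. The counting interval of the ratio of 2KR over WT, from 0.778 upward, held 1, so no difference was detectable at this depth. Tlr9 (ENSMUSG00000045322, chromosome 9, 106222598 to 106226883), the receptor of unmethylated CpG DNA, had 0 counts in both libraries, although its neighbours Twf2 and Alas1 had 59.6 and 21.05 CPM in WT. Summed over the 4 endosomal genes, the level fell from 71.9 CPM in WT to 2.91 in 2KR, and Tlr7 made up nearly all of the WT sum. Tlr12, an endosomal receptor gene outside the 10 that is described with the pathway lists, was higher in 2KR. With Tlr12 added, WT summed to 143.05 CPM and 2KR to 99.9, a ratio of WT over 2KR of 1.43 (1.35 to 1.52).

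The surface receptors were low in both libraries and showed no difference beyond counting error. Tlr6 (ENSMUSG00000051498, chromosome 5, 64952031 to 64960097) had 67 counts in WT against 77 in 2KR (3.83 and 3.74 CPM), a ratio of 2KR over WT of 0.975 (0.694 to 1.37). Tlr2 (ENSMUSG00000027995, chromosome 3, 83836272 to 83841767), the common partner of TLR1 and TLR6, had 24 and 32 counts, or 1.37 and 1.55 CPM, a ratio of 1.13 (0.646 to 2.01). Counting error alone leaves room for a difference of up to 1.44-fold in Tlr6 and 2.01-fold in Tlr2. Tlr1 (ENSMUSG00000044827, chromosome 5, 64924679 to 64933563), which lies 18468 bases from Tlr6 on the same strand, had 3 and 1 counts. Tlr4 (ENSMUSG00000039005, chromosome 4, 66827584 to 66930284) had 1 and 3 counts. Neither gene had enough counts for a difference to be detectable. Summed over the 4 surface genes, the level was 5.43 CPM in WT and 5.48 in 2KR, and the ratio of WT over 2KR was 0.991 (0.746 to 1.31).

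Tlr7 accordingly made up 91.3% of the counts of the 8 receptors in WT (Wilson 95% interval 89.7 to 92.7) and 26.6% in 2KR (20.6 to 33.6). Over all 12 Toll-like receptor genes of the mouse, Tlr12 included, the share of Tlr7 was 47.6% in WT (45.7 to 49.5) and 2.11% in 2KR (1.59 to 2.81). These shares are of reads, and a longer transcript gives more of them.

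The trafficking partner did not differ detectably, and the adaptor differed little. Unc93b1 (ENSMUSG00000036908, chromosome 19, 3935186 to 3949340) had 32 counts in WT against 40 in 2KR (1.83 and 1.94 CPM), a ratio of 1.06 (0.650 to 1.74). Its level was therefore low in the library where Tlr7, a receptor that depends on its product, was high. Myd88 (ENSMUSG00000032508, chromosome 9, 119335934 to 119341411, minus strand) had 953 and 971 counts, or 54.5 and 47.1 CPM, a ratio of 0.865 (0.790 to 0.946). The interval lay wholly below 1, as it did in 28.5% of all models compared, so a difference of this kind was common between these libraries. Myd88 overlaps Acaa1a, a peroxisomal enzyme gene of the opposite strand, over 1736 bases. Acaa1a had 39.7 and 34.5 CPM, and without strand information reads in the overlap cannot be told apart. Slc22a14, which also spans Myd88, had 0 counts in both. The genes closest to Myd88 in CPM over both libraries were Vgll4, Tfe3 and Gga1.

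**Figure D2:**
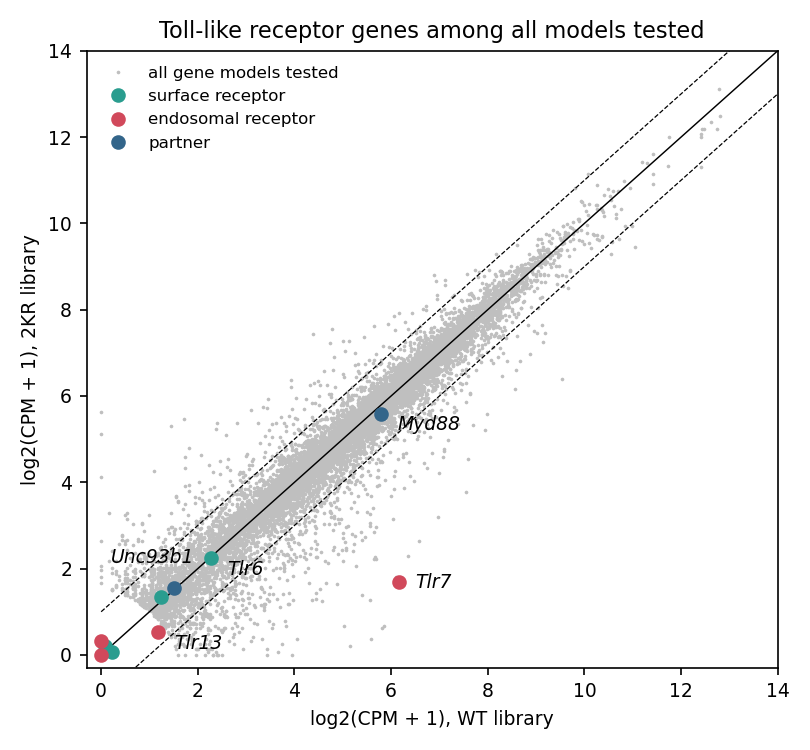
log2(CPM + 1) in the 2KR library against the WT library for the 12466 models that passed the filter (grey) and all 10 genes (colours by role); the solid line marks equality and the dashed lines 2-fold. Tlr7, with a log2 ratio of -4.47, lies far under the lower dashed line, Myd88 lies close to equality, and the unlabelled coloured points are Tlr2 beside Unc93b1 and, near the origin, genes with few or no counts.

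The order of levels per gene length was read from the FPKM values. In WT, Myd88 came first at 11.7 FPKM (10.98 to 12.5) and Tlr7 second at 6.10 (5.76 to 6.45), and their intervals did not meet. Tlr6 followed at 0.923 (0.715 to 1.17). Unc93b1, Tlr2 and Tlr13 came next at 0.459, 0.452 and 0.299, and neighbours among these did not differ beyond counting error. Tlr1 and Tlr4 were lowest of the genes with counts, at 0.0277 and 0.00840. In 2KR, Myd88 was again first at 10.3 FPKM (9.63 to 10.9), and Tlr6, Tlr2 and Unc93b1 followed at 0.913, 0.519 and 0.493 with intervals that met from one to the next. Tlr7 was then at 0.195 (0.143 to 0.261), beside Tlr13 at 0.105. Tlr3, Tlr4 and Tlr1 were lowest of the genes with counts, at 5 or fewer each, and Tlr9 had none.

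The length used for FPKM mattered most for Tlr7. The deposited values correspond to a length of 11508 bases, whereas the merged exons of Tlr7 in GENCODE M21 cover 4082 bases and the 6 annotated transcripts, added together, 12152. On the merged length Tlr7 stood at 17.2 FPKM in WT (16.2 to 18.2), nearer to Myd88 at 21.01 (19.7 to 22.4) but still below it. In 2KR it stood at 0.551 (0.403 to 0.735), with an interval that met those of Unc93b1 at 0.645 and Tlr2 at 0.519. Of 12710 models with at least 10 counts in both libraries and a match in GENCODE, 8740 had a deposited length more than 1% above the merged length. The ratio between the libraries is not touched by this, since both use the same length.

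**Figure D3:**
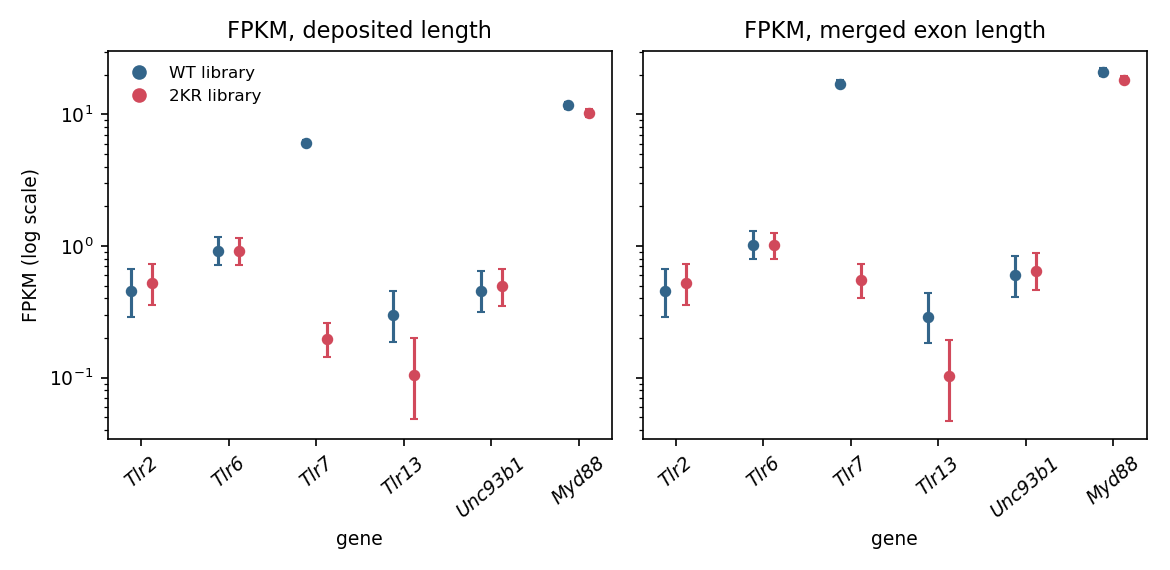
FPKM on a log axis for the 6 genes with at least 10 counts in all, as deposited (left) and recomputed on the merged exon length of GENCODE M21 (right), in the WT (blue) and 2KR (red) libraries with exact 95% counting intervals. Tlr7 in WT moves from 6.10 to 17.2 FPKM between the panels, and Tlr2 keeps its value.

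Other genes of the pathway were taken from lists chosen by role. Of the 4 mouse Toll-like receptor genes outside the 10, Tlr12 had 1244 counts in WT against 1998 in 2KR (71.2 and 96.97 CPM), a ratio of 1.36 (1.27 to 1.46). TLR12 is an endosomal receptor of protozoan profilin that also uses UNC93B1, and per length it stood at 19.6 FPKM in WT and 27.1 in 2KR. These were the highest FPKM values of the 12 Toll-like receptor genes in each library. On the merged exon length Tlr12 was at 22.2 FPKM in WT, beside 17.2 for Tlr7. Tlr5 had 0 and 5 counts, and Tlr11 had 0 in both.

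Accessory proteins of the surface receptors were low. Of 6 genes only Ly96, which encodes the MD-2 partner of TLR4, averaged at least 1 CPM, at 3.66 in WT against 2.52 in 2KR, a ratio of 0.689 (0.469 to 1.01). Chaperones and export factors of the receptors were level between the libraries: of 7 genes, 0 differed 2-fold and the median log2 ratio was -0.02. Hsp90b1, the chaperone gp96, had 635 and 625 CPM. Lman1, a cargo receptor, had the largest log2 ratio of the list, 0.25.

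Endosomal proteases, nucleases and transporters had 8 of 12 genes above the filter. Their median log2 ratio was -0.33, 7 ratios lay below 1, and the rule called 0 of them. Pld3, an exonuclease of endolysosomes, went from 252 CPM in WT to 128.4 in 2KR, a ratio of 0.509 (0.485 to 0.535). Lgmn, an asparagine endopeptidase that cleaves endosomal receptors, had 16.6 and 8.15 CPM, a ratio of 0.492 (0.404 to 0.596). Pld4, a relative of Pld3, had 31 and 18 counts. Lgmn and Pld4 were over 2-fold lower in plain CPM but short of the rule because of the added 1 CPM.

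Signalling adaptors and kinases had a median of -0.14 over the 20 of 21 genes that passed the filter, with 1 lower and 1 higher. Btk, a tyrosine kinase that acts downstream of several of these receptors and of the IgE receptor, had 611 counts in WT against 196 in 2KR (34.9 and 9.51 CPM), a ratio of 0.272 (0.231 to 0.320). Ticam2, the adaptor TRAM of TLR4, had 121 and 349 counts, a ratio of 2.45 (1.98 to 3.04). Its model overlaps Tmed7 on the same strand, which had 2576 and 3250 counts, so the split of reads between them is uncertain. Ticam1, the adaptor TRIF used by TLR3 and TLR4, had 42.8 and 24.99 CPM. Tab2, which links TRAF6 to the kinase TAK1, had the highest mean, at 413 and 262 CPM.

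Inhibitors of the pathway had 12 of 13 genes above the filter, with a median of -0.41, and 10 of these 12 ratios lay below 1 while 0 passed the rule. Nfkbia, the NF-kB inhibitor, had 35.98 and 18.7 CPM, Tnfaip3, the deubiquitinase A20, 67.6 and 38.6, and Socs1, a suppressor of cytokine signalling, 83.96 and 52.2. The most abundant, the lectin Lgals9, had 379 and 362 CPM. Sarm1, a TIR domain protein, fell under the filter with 8 counts in WT and 0 in 2KR.

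Receptors of the interleukin 1 family, several of which also signal through a TIR domain and MyD88, formed another list. Their median was -0.72 over the 6 of 9 genes that passed the filter, the lowest of the 9 pathway lists. Of the 6, 3 were at least 2-fold lower and 0 higher. With no filter the median was -0.43, above the -0.50 of the inhibitors. Ratios lay below 1 for 4 of the 6 and above 1 for 2. Il18r1, a chain of the interleukin 18 receptor, went from 813 CPM in WT to 364 in 2KR, a ratio of 0.448 (0.436 to 0.461). Il18rap, the other chain of that receptor, had 482 and 512 CPM, a ratio of 1.06 (1.03 to 1.09). Il1rl1, the interleukin 33 receptor of mast cells, had 214 and 95.7 CPM, and Il1r1, the interleukin 1 receptor, 24.5 and 11.6. Il1r1 passed the rule narrowly, with a log2 ratio of -1.01, and the count of lower genes was 2 with a pseudocount of 5, with library totals alone or on FPKM + 1. Per length, Il18r1 was at 94.2 FPKM in WT, far above Tlr7, and its ratio between the libraries was much closer to 1.

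Genes commonly induced by Toll-like receptor stimulation had a median of -0.37 over the 12 of 23 genes that passed the filter, with 1 lower and 1 higher. Ptgs2, the inducible cyclooxygenase, had 738 and 83.3 CPM, and the adhesion molecule Icam1 had 5.15 and 22.1, a ratio of 4.30 (3.42 to 5.45). Nfkbiz, an IkB-related nuclear factor, had 77.8 and 38.6 CPM, and just missed the rule. Other sensors of nucleic acids and bacteria had a median of 0.10 over 10 of 14 genes, with 0 lower and 1 higher. Mb21d1, the DNA sensor cGAS, went from 23.6 CPM in WT to 50.7 in 2KR, a ratio of 2.15 (1.92 to 2.42). Ifih1, the RNA sensor MDA5, had 7.49 and 12.3 CPM, Nod1, a sensor of bacterial cell wall, 6.12 and 7.81, and Tmem173, the adaptor STING, 146 and 137.

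**Figure D4:**
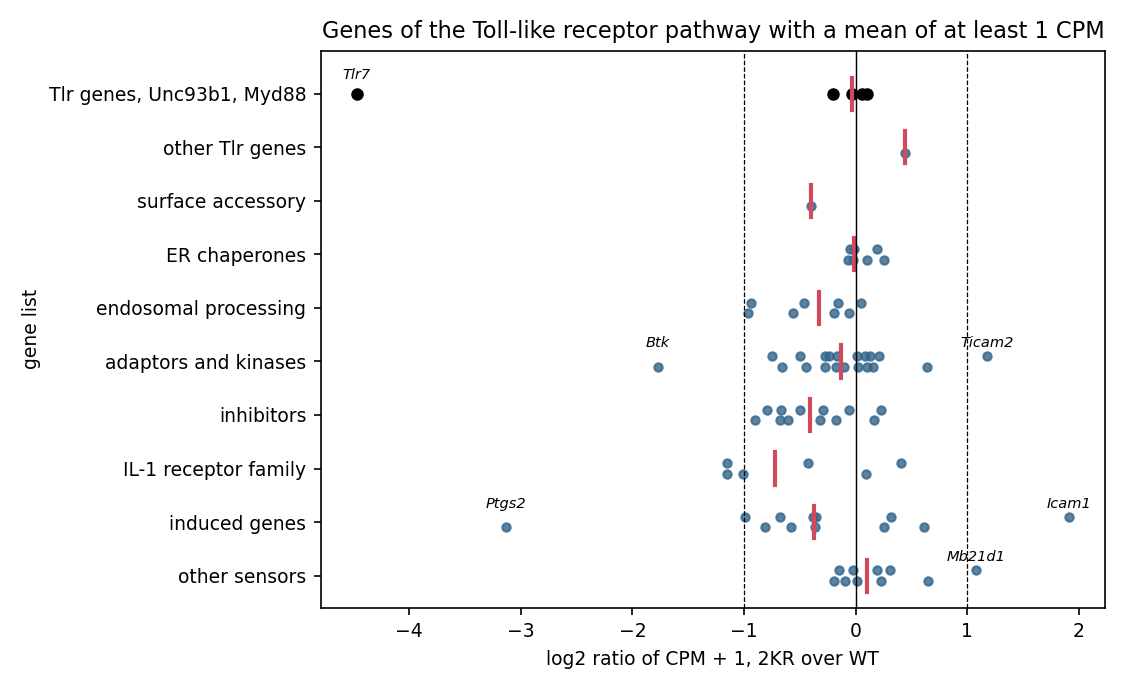
log2 ratio of CPM + 1, 2KR over WT, for each gene with a mean of at least 1 CPM among the described genes (black) and the 9 pathway lists (blue), with the median of each list as a red bar and dashed lines at 2-fold. Tlr7 at -4.47 is the lowest point, and the chaperone list lies close to 0 around its median of -0.02.

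Markers of the cell types known for these receptors were read in both libraries. Several defining genes of plasmacytoid dendritic cells and B cells, which are known for TLR7 and TLR9, had few or no reads. Siglech had 4 counts in WT and 0 in 2KR, Klk1 and Ly6d had 0 in both, and the B cell genes Pax5, Ebf1 and Cd79b had 0 in both. The plasmacytoid marker Ccr9 had 87 and 61 counts (4.98 and 2.96 CPM), a ratio of 0.595 (0.422 to 0.835). Its model overlaps Lztfl1, which had 297 and 118.5 CPM, so the split of reads between them is uncertain. The 9 plasmacytoid markers summed to 171 CPM in WT and 193 in 2KR, nearly all from Bst2, Tcf4 and Il3ra, and the 8 B cell markers to 0.801 and 1.46. Of 10 monocyte and macrophage markers, 6 averaged at least 1 CPM, with 2 at least 2-fold lower (Cx3cr1 and Ccr2) and 1 higher (Ly6c2). The 10 markers summed to 260.3 CPM in WT and 122 in 2KR, of which Cx3cr1 had 101.3 and 20.7. The Cx3cr1 model overlaps Wdr48 (123.4 and 120.6 CPM), Csrnp1 (29.4 and 13.98) and Gorasp1 (19.8 and 18.8), so its reads are uncertain too. Csf1r had 10 and 12 counts and Fcgr1 2 and 0. The 8 mast cell and basophil markers summed to 7097 and 3795 CPM, with 4 of 6 compared genes at least 2-fold lower and 1 higher, and Fcer1a at 0 in both. Dendritic cell markers summed to 31.2 and 49.3 CPM, with 3 of 10 at 0 in each library, and neutrophil markers to 8.41 and 6.60. The sums of the monocyte and mast cell lists were thus lower in 2KR in the same direction as Tlr7, by smaller ratios, and their part in the result was not tested. In bulk RNA, fewer cells of a type and less RNA per cell cannot be told apart.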

How the data were processed

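Libraries were grouped by the infection stated for each sample. The tool and build named were the aligner HISAT2 2.0.4 and GRCm38, per the submitters' processing notes (the sources used here name no counting program, annotation release or strandedness). For every gene model the authors deposited read counts, not normalized, and FPKM, which divides by gene length and library total, per the file headers. The FPKM of 12759 of 12759 models with at least 10 counts in both libraries fit 1 length per gene within 0.1%.

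Library totals were adjusted by TMM factors (0.9931 for WT and 1.007 for 2KR) from edgeR 4.0.16 in R 4.3.3. Python 3.11.15 did the rest, with scipy 1.17.1 for intervals. The log2 ratio is that of CPM + 1, which understates low genes, and models that averaged at least 1 CPM were compared. Ratios elsewhere are of CPM without the addition, with exact Clopper-Pearson intervals of the counts given both scaled totals; single levels have exact Poisson intervals. At 0 counts the limit is 3 counts per library.

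Identifiers matched GENCODE M21 for 34267 models. The members, lists and rules were chosen with earlier results of these data known. All 10 members were named, with, from each pathway list, the 1 gene of highest mean and up to 3 of largest log2 ratio in size; neighbours and overlapping models on the chromosome; and the 3 genes nearest in level to Tlr7 and Myd88. Genes named for their markers or counts beyond this were chosen after their values were seen: Igf2bp3, Olfm3, Colgalt2, Tgfb2, Tlr5, Tlr8, Tlr11, Sarm1, Il18rap, Siglech, Klk1, Ly6d, Ccr9, Lztfl1, Pax5, Ebf1, Cd79b, Csf1r, Fcgr1, Fcer1a, Kit, Cpa3, Bst2, Tcf4, Il3ra, Cx3cr1, Wdr48, Csrnp1, Gorasp1, Ccr2 and Ly6c2.

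Counts were simulated for the 12466 models of 2KR against WT with Poisson counting error only. On these the 2-fold rule passed 1 of 12266 unchanged genes. Of 50 genes each it passed 11 set at 2-fold, 48 set at 3-fold and all 50 set at 4-fold. Variation between cultures or animals was not simulated, so the rate of false calls between real libraries is unknown. Alternatives were 2 other pseudocounts (0.1 and 5), dropping the filter or raising it to 5 CPM, DESeq2 1.42.0 size factors, library totals with or without mitochondrial models, FPKM, an interval rule and another gene length.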

Additional observations from a re-analysis of the deposited data

How the results depend on the processing

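Of 331 values recomputed under the alternatives, 309 were counted as unmoved and 22 as moved. A ratio counted as unmoved when it stayed within its counting error, which is wide at few counts. A median was held to the median counting error of its genes. A count of called genes was unmoved when equal, or when both counts were above 0 and differed by up to 1.5-fold. The change from 3 to 2 lower interleukin 1 receptor genes was therefore among the unmoved. A rank was unmoved only when equal. With a pseudocount of 0.1, Tlr13 went from -0.65 to -1.34 and Tlr3 from 0.31 to 1.78, and both counted as unmoved. A change of sign was looked for only in the ratio of Tlr7, which had none. With no filter the median of the accessory proteins went from -0.40 to 0.03 and that of other sensors from 0.10 to -0.03. Every scaling tried (DESeq2 size factors and library totals with or without mitochondrial models) left the log2 ratio of Tlr7 between -4.45 and -4.50. That ratio was -4.92 with a pseudocount of 0.1, -3.39 with 5 and -2.57 on FPKM + 1, past 2-fold in each. With a mean of at least 5 CPM the median of the members was -2.34, because only Tlr7 and Myd88 were left. Under the counting interval beyond 1.5-fold, the lists had 2 endosomal processing genes, 3 adaptors and kinases, 2 inhibitors and 2 induced genes lower in 2KR. With a pseudocount of 0.1, 1 endosomal processing gene and 3 induced genes were lower. With no filter, 2 adaptors and kinases were lower. With a pseudocount of 5 or on FPKM + 1, 0 adaptors and 0 other sensors were higher, where Ticam2 and Mb21d1 had been called; with a pseudocount of 0.1 or under the counting interval beyond 1.5-fold each list had 1 higher. The interleukin 1 receptor median was -0.51 with a pseudocount of 5, -0.43 with no filter, -1.08 with a mean of at least 5 CPM and -0.48 on FPKM + 1. On the merged exon length the ranks by level in 2KR were 3 for Unc93b1, 4 for Tlr7 and 5 for Tlr2. Other than where stated, the cause was not tested. No paired analysis was possible because there is 1 library per form. Depth limits Tlr1, Tlr3, Tlr4 and Tlr9, with 5 counts or fewer in each library.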
